A study of Homo sapiens with 8 samples.

Results

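The genes described here are 7 prostate surface and secreted antigens, FOLH1, STEAP1, STEAP2, STEAP4, ACPP (also called ACP3), AZGP1 and TRPM8. They were chosen by name, with earlier results of these data known. They were measured by RNA-seq as 31 transcripts, among 74209 transcripts of 19415 genes. The cells were LNCaP-FGC, a human prostate carcinoma line that depends on androgen, so every group came from 1 line. The groups received DMSO (the solvent), I-CBP112, A-485 or I-CBP112 plus A-485 for 24 h, with 2 libraries each. I-CBP112 binds the bromodomain, the acetyl-lysine reader, of the coactivators p300 and CBP, and A-485 inhibits their acetyltransferase site. The sources used here give no doses. The series asked what either compound and their combination do to messenger RNA levels. Whether the libraries of a group are separate cultures is not stated in the labels, and the spread behind each p-value may therefore be technical.

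These genes encode proteins by which prostate epithelium, and carcinoma derived from it, is recognised. FOLH1 encodes the prostate-specific membrane antigen, a surface peptidase that releases glutamate from folates and peptides and is used as a target for imaging and radioligands. The STEAP genes encode six-transmembrane proteins. STEAP2 and STEAP4 reduce iron and copper ions, whereas STEAP1 lacks the domain that binds the electron donor and is itself an antibody target. ACPP encodes prostatic acid phosphatase, a classical secreted marker, and AZGP1 encodes zinc-alpha-2-glycoprotein, a secreted protein of seminal fluid with a fold like that of class I histocompatibility molecules. TRPM8 encodes a cation channel opened by cold and menthol.

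The 250 bases before the start sites of 4 of these genes are shown because they stand for the contrasting responses described further on. TRPM8 and ACPP fell with A-485 alone. STEAP1 and STEAP2, which are neighbours on chromosome 7, fell with both compounds and did not pass with either alone. The windows are those of RefSeq on GRCh38.p14, at chr2:233917123-233917372 for TRPM8, chr3:132317157-132317406 for ACPP, chr7:90154219-90154468 for STEAP1 and chr7:90211490-90211739 for STEAP2, all on the plus strand. They are written 5′ to 3′, and capitals mark a TATA box (TATAAA) in TRPM8 and a GC box (GGGCGG, here on the other strand) in STEAP2.
TRPM8: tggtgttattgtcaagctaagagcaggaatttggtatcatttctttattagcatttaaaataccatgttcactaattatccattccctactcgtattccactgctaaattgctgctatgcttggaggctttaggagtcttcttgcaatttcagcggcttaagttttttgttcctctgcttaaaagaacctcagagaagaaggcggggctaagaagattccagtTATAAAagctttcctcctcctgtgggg
ACPP: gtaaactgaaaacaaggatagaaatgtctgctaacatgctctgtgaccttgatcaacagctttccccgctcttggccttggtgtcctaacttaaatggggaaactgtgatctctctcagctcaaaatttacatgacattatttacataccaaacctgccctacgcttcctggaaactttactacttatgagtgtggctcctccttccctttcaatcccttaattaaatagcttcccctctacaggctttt
STEAP1: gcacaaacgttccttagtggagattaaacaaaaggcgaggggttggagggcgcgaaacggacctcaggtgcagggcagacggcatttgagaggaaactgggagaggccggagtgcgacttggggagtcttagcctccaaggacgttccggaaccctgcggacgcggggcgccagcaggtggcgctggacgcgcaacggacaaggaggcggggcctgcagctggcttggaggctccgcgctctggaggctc
STEAP2: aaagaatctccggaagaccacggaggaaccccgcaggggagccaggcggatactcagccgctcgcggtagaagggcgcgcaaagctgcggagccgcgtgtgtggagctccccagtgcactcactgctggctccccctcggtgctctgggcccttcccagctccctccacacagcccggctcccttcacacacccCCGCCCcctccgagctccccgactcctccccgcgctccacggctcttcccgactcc

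Windows of 300 bases (250 before to 50 after the start) were found for 6 of the 7 genes. Their content of G and C was 41.0% in TRPM8 and 43.7% in ACPP, below the median of 58.7% over 35116 promoters. It was 66.7% in STEAP1 and 70.3% in STEAP2, above that median, and 52.7% in AZGP1 and 58.7% in STEAP4. The motifs named here were searched on both strands, with letters that could overlap. TATAAA stood 27 bases before the start of TRPM8 and in 11.5% of all promoters. CCAAT stood 79 bases before the start of AZGP1 (34.6% of all promoters), and GGGCGG occurred in STEAP2 and in STEAP4 (45.0%). The forkhead core TGTTTAC (3.42%) and the cyclic AMP element TGACGTCA (1.85%) were not found in these 6 windows. That says nothing of factors bound elsewhere. For ACPP, the transcript with the highest level under DMSO starts 35395 bases from this window and has an incomplete annotated end.

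Levels are given as scaled FPKM, that is fragments per kilobase of transcript and per 1e+06 fragments, summed over a gene's transcripts and rescaled between libraries. The deposited FPKM summed to 696917 to 808443 in the replicate 1 libraries and to 181486 to 408673 in the replicate 2 libraries. The table held about 15.9 to 28.2 M fragments (M stands for 1e+06) in replicate 1 and about 4.44 to 13.5 M in replicate 2, so replicate and depth cannot be told apart. Luminal prostate markers dominated, with summed levels of 4371 to 5539 with DMSO, 2946 to 3083 with I-CBP112, 2009 to 2312 with A-485 and 1541 to 2182 with both. The basal markers summed to 8.07 to 28.6, with TP63 under 0.1 in every library. The blood cell markers, led by CD68 and with PTPRC and CD3E under 0.1, summed to 1.44 to 2.05 with DMSO, 2.08 to 2.74 with I-CBP112, 2.59 to 5.71 with A-485 and 4.34 to 6.14 with both. The neuroendocrine markers rested on ENO2 and summed to 19.2 to 31.9 with DMSO and to 75.5 to 78.1 with both compounds, while CHGA, CHGB and INSM1 stayed under 0.1. The luminal, blood cell and neuroendocrine sums thus differed between the groups, as the antigen genes did, and their part in the results was not tested. Genes were called where limma on log2(scaled FPKM + 1) gave an adjusted p under 0.05 over the 11870 genes tested, those with a scaled value of at least 1 in at least 2 libraries. By that rule 552 genes were called with A-485 against DMSO (149 higher, 403 lower) and 1245 with both compounds (351 higher, 894 lower). Scaling each library to its total alone gave 376 higher and 161 lower, and 738 higher and 489 lower.

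Of the 7 genes, 6 passed the filter. STEAP4 did not. TRPM8 passed it only through its DMSO and I-CBP112 libraries, where it is high, so its calls against those groups are no support. Under DMSO, FOLH1 was the most abundant, at 488 ± 20.6 scaled FPKM (SD, n = 2), above 97.7% of the genes tested. STEAP1 followed at 191 ± 33.0 and STEAP2 at 151 ± 28.7, and their libraries overlapped. AZGP1 stood at 73.2 ± 4.20, ACPP at 19.8 ± 1.13 and TRPM8 at 4.53 ± 0.435, above 84.2%, 58.6% and 24.9% of the genes tested. STEAP4 was close to absent. It was listed at 0 in the second libraries of DMSO, I-CBP112 and A-485, and lay between 0.0210 and 0.0649 in the other 5, on fewer than 6 estimated fragments a library, so no fold is given.

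**Figure D1:**
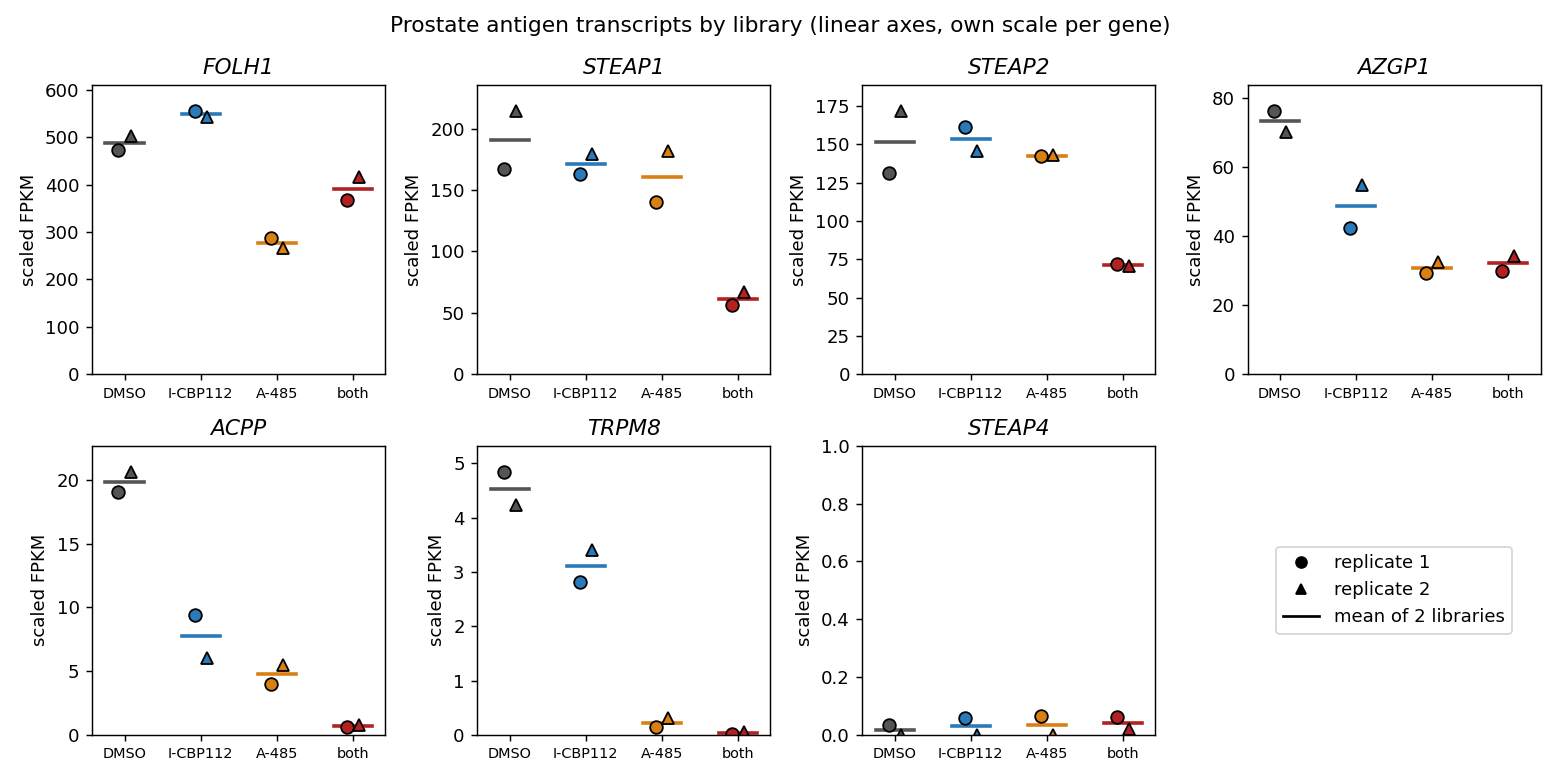
Scaled FPKM of each antigen gene (vertical axis, linear, own scale per panel) in the 8 libraries, with circles for replicate 1, triangles for replicate 2 and a bar for the mean of 2 libraries. TRPM8 and ACPP sit lowest with both compounds (at most 0.0493 and 0.765), STEAP1 and STEAP2 stand apart with both compounds, and STEAP4 lies under 0.07 throughout.

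Of the secreted products, ACPP had a separate level in each group and fell with A-485 and with both compounds. It stood at 19.0 and 20.6 scaled FPKM under DMSO, 9.40 and 6.05 under I-CBP112, 4.01 and 5.52 under A-485, and 0.581 and 0.765 under both. No library of a group overlapped those of the next, and the level with both compounds was 3.39% of the DMSO mean. The log2 fold change was -1.87 ± 0.24 (SE) with A-485 (limma, adjusted p = 0.00824) and -3.64 ± 0.24 with both (limma, adjusted p = 0.00023). With I-CBP112 alone it was -1.28 ± 0.24, lower in both libraries, and did not pass (limma, adjusted p = 0.218). The combination was lower than A-485, at -1.77 ± 0.24 (limma, adjusted p = 0.0161) and lower than I-CBP112, at -2.36 ± 0.24 (limma, adjusted p = 0.00304). A-485 and I-CBP112 were not separated by the test, at -0.58 ± 0.24 (limma, adjusted p = 0.325). Without A-485 replicate 1 the fall with A-485 did not pass (limma, adjusted p = 0.0607), and the difference between both and A-485 was lost when any 1 library of either group was left out (limma, adjusted p up to 0.165). In bulk RNA, fewer cells that carry a transcript and less of it per cell cannot be told apart.

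AZGP1 fell with A-485 and lay no lower when I-CBP112 was added. Its libraries stood at 76.2 and 70.2 scaled FPKM under DMSO, 42.5 and 54.8 under I-CBP112, 29.2 and 32.4 under A-485, and 29.98 and 34.3 under both. The last 2 groups overlapped, and both lay under I-CBP112, which lay under DMSO. The log2 fold change against DMSO was -1.22 ± 0.19 with A-485 (limma, adjusted p = 0.0158), -1.17 ± 0.19 with both (limma, adjusted p = 0.00925) and -0.59 ± 0.19 with I-CBP112 (limma, adjusted p = 0.355, not called). Between both and A-485 the difference was 0.057 ± 0.19 (limma, adjusted p = 0.934). The A-485 call was lost without DMSO replicate 1 or either A-485 library (limma, adjusted p up to 0.0989), and that of the combination without its replicate 1 (limma, adjusted p = 0.0876).

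The channel gene TRPM8 fell with A-485, to 4.96% of the DMSO mean, and with both compounds. Its levels were 4.84 and 4.22 scaled FPKM under DMSO, 2.82 and 3.41 under I-CBP112, 0.145 and 0.305 under A-485, and 0.0246 and 0.0493 under both. The 4 groups did not overlap. The log2 fold change was -2.18 ± 0.21 with A-485 (limma, adjusted p = 0.00492) and -2.41 ± 0.21 with both (limma, adjusted p = 0.00072), called whichever library was left out. With I-CBP112 alone it was -0.43 ± 0.21 (limma, adjusted p = 0.493). A-485 was lower than I-CBP112, at -1.75 ± 0.21 (limma, adjusted p = 0.0129), a call lost when any 1 library of those 2 groups was left out (limma, adjusted p up to 0.0991), and the combination was lower than I-CBP112, at -1.98 ± 0.21 (limma, adjusted p = 0.00348).

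The pseudocount of 1 understates these changes of TRPM8, so its fragments were also counted. Estimated fragments numbered 291 in the DMSO libraries together, 179 for I-CBP112, 21 for A-485 and 5 for the combination. Corrected for the libraries' scale, that was 65.5% of DMSO for I-CBP112 (95% interval 54.1 to 79.2%), 4.35% for A-485 (2.65 to 6.77%) and 1.17% for the combination (0.376 to 2.76%). The exact intervals cover counting error only, and they pool the 2 libraries of a group, which differ in depth. Replicates 1 and 2 held 236 and 55.1 fragments of TRPM8 with DMSO, and 16.0 and 5.04 with A-485. The intervals of A-485 and the combination overlap, and the test between them gave -0.24 ± 0.21 (limma, adjusted p = 0.696). For ACPP the same count gave 53.4% (45.6 to 62.3%), 26.3% (22.3 to 30.9%) and 4.67% (3.20 to 6.61%). By summed FPKM, ACPP with I-CBP112 stood at 38.95% of the DMSO mean, below its counting interval. With A-485 and with both compounds it stood at 24.0% and 3.39%, inside theirs. Summed FPKM gives shorter transcripts more weight than fragments do. Its group mean also weighs the libraries alike, whereas pooled fragments follow depth. The cause of the gap with I-CBP112 was not tested.

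STEAP1 and STEAP2 fell with both compounds and did not pass the test with either alone. STEAP1 stood at 168 and 214 scaled FPKM under DMSO, 163 and 179 under I-CBP112, 140.1 and 182 under A-485, and 56.1 and 66.6 under both. The first 3 groups overlapped one another and the combination lay apart, at 32.1% of the DMSO mean. Against DMSO the log2 fold change was -1.62 ± 0.22 (limma, adjusted p = 0.00432), called whichever library was left out. With I-CBP112 it was -0.15 ± 0.22 and with A-485 -0.25 ± 0.22 (limma, adjusted p = 0.845 and 0.523), and both turned above 0 when libraries were scaled to their total alone (0.015 and 0.11). The combination was lower than A-485, at -1.37 ± 0.22 (limma, adjusted p = 0.0337) and lower than I-CBP112, at -1.47 ± 0.22 (limma, adjusted p = 0.0165). These 2 calls were lost when any 1 library of the groups compared was left out (limma, adjusted p up to 0.318 and 0.156), the first also without either I-CBP112 library.

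STEAP2 had 131 and 172 scaled FPKM under DMSO, 161 and 146 under I-CBP112, 142 and 143 under A-485, and 72.0 and 70.9 under both. Again the combination stood apart, at 47.2% of the DMSO mean. Its log2 fold change against DMSO was -1.06 ± 0.20 (limma, adjusted p = 0.0151), lost without either library of the combination (limma, adjusted p up to 0.104) and with scaling to the total alone (-0.79; limma, adjusted p = 0.0695). The changes with I-CBP112 and A-485 were 0.033 ± 0.20 and -0.072 ± 0.20 (limma, adjusted p = 0.973 and 0.846), the second turning to 0.29 with that scaling. Against I-CBP112 the combination was lower, at -1.09 ± 0.20 (limma, adjusted p = 0.0330), lost when any 1 library of I-CBP112, A-485 or the combination was left out (limma, adjusted p up to 0.220). Against A-485 it was at -0.99 ± 0.20, which passed with the replicate number as a block (limma, adjusted p = 0.0389) and not without it (0.0903).

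The shortfall of these STEAP genes with both compounds, beyond the sum of the changes with each, is the interaction. It was -1.22 ± 0.32 for STEAP1 and -1.02 ± 0.28 for STEAP2 on the log2 scale. Neither passed over all genes (limma, adjusted p = 0.402 and 0.420). In each replicate the value was below 0, at -1.27 and -1.18 for STEAP1 and at -1.27 and -0.77 for STEAP2. For the other genes the interaction was 0.33 ± 0.27 (FOLH1), -0.49 ± 0.34 (ACPP), 0.65 ± 0.27 (AZGP1) and 0.19 ± 0.30 (TRPM8), with adjusted p by limma between 0.557 and 0.865. That of ACPP turned to 0.20 with a pseudocount of 5, and that of TRPM8 to -0.68 with a pseudocount of 0.1 and to -1.20 with voom on fragments, so no direction is read for these 2 genes. In the interaction 0 of 11870 genes were called by limma, a share of 0%, while 1052 had an unadjusted p under 0.05, among them STEAP1, STEAP2 and AZGP1. With the replicate block 11 genes were called (0.0927%), and none of these 6.

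STEAP1 may share reads with a copy. STEAP1B, a relative with identical stretches, stood at 8.64 to 10.9% of the STEAP1 level in the 8 libraries, and 28.7% of the windows of 50 bases in its measured transcript are identical in STEAP1. Its log2 fold change with both compounds was -1.61 ± 0.24 (limma, adjusted p = 0.00589), next to -1.62 for STEAP1. Which of the fragments belong to which copy was not tested. No window of 50 bases was shared between the main STEAP2 transcript and STEAP1.

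FOLH1 fell with A-485, and its level with the combination lay between those of A-485 and DMSO. It stood at 474 and 503 scaled FPKM under DMSO, 555 and 542 under I-CBP112, 287 and 266 under A-485, and 368 and 415 under both. No groups overlapped, and the order was I-CBP112, DMSO, both compounds and A-485, at 112.4%, 80.2% and 56.6% of DMSO for the treated groups. The log2 fold change with A-485 was -0.82 ± 0.19 (limma, adjusted p = 0.0494). That call stood at the threshold. It was lost in each of the 8 fits with 1 library left out (limma, adjusted p from 0.0538 to 0.269) and with scaling to the total alone (-0.46; limma, adjusted p = 0.140). With both compounds the change was -0.32 ± 0.19 (limma, adjusted p = 0.318) and with I-CBP112 0.17 ± 0.19 (limma, adjusted p = 0.772). The level with both was above that with A-485 in both libraries by 0.50 ± 0.19, which did not pass (limma, adjusted p = 0.352). Against I-CBP112, A-485 was at -0.99 ± 0.19, which passed with the replicate block (limma, adjusted p = 0.0213) and not without it (0.0637).

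**Figure D2:**
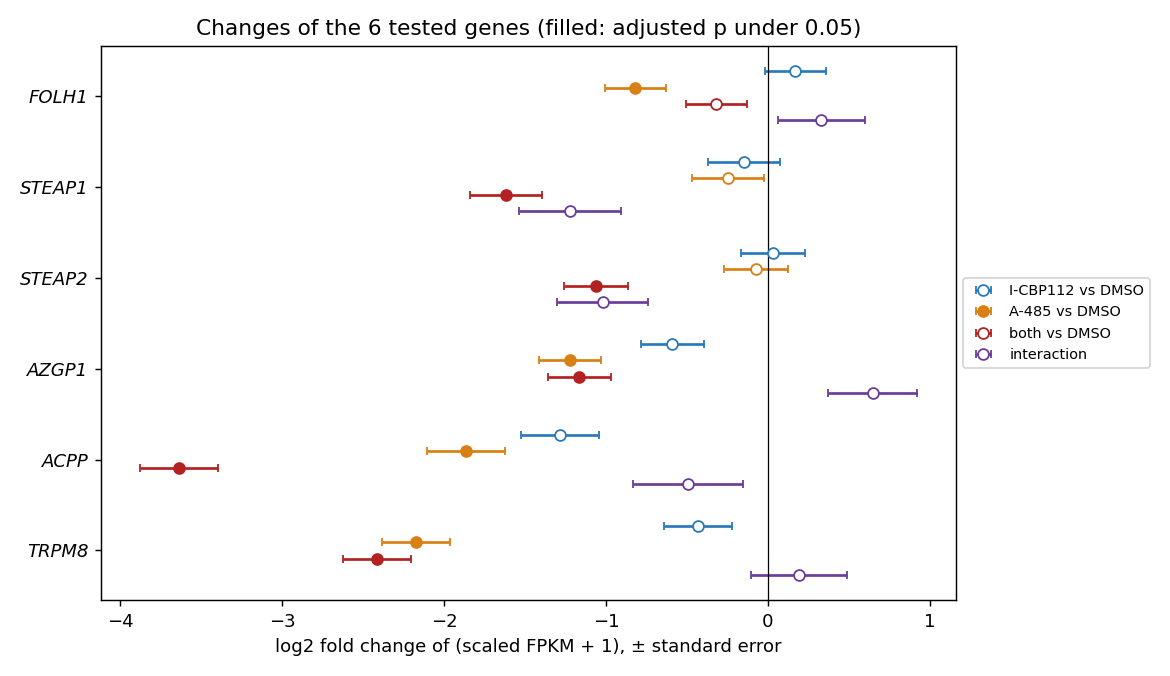
Log2 fold change of (scaled FPKM + 1), with standard error, for the 6 tested genes in the 3 comparisons with DMSO and in the interaction (horizontal axis); filled points passed limma at an adjusted p under 0.05. No point is filled for I-CBP112 alone, 4 are for A-485, 5 for both compounds and none for the interaction.

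These genes were chosen with earlier results of these data known, so their counts beside all genes are a description. The counts include TRPM8, which passed the filter only through its DMSO and I-CBP112 libraries and whose calls are no support. Over the 6 genes, A-485 against DMSO gave 4 calls, each lower, where limma called 4.65% of all genes tested (3.4% lower). Both compounds gave 5 calls, each lower, against 10.5% of all genes (7.53% lower). I-CBP112 gave 0 calls by limma among the 6 genes and 0 of 11870 in all, a share of 0%, with ACPP and AZGP1 at an unadjusted p under 0.05 (1317 genes in all). With the replicate block it also called 0. Both compounds against A-485 gave 2 lower calls, STEAP1 and ACPP (0.809% of all genes called, 0.716% lower), or 3 with the replicate block (1.44%). Both against I-CBP112 gave 4 lower calls, the genes other than FOLH1 and AZGP1 (2.24%, 1.98% lower). A-485 against I-CBP112 gave 1 lower call, TRPM8 (0.851%, 0.767% lower), or 2 with the block (2.58%). Groups did not overlap for 6 of the 6 genes with both compounds, each lower (27.9% of all genes were), for 4 with A-485 (26.8%), and for 3 lower (19.8%) and 1 higher (17.4%) with I-CBP112. The median log2 fold change of the 6 was -0.29 for I-CBP112, -1.02 for A-485 and -1.39 for the combination, beside -0.012, -0.012 and 0.014 over all genes. The comparisons with DMSO share their control libraries, so their calls are not independent.

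**Figure D3:**
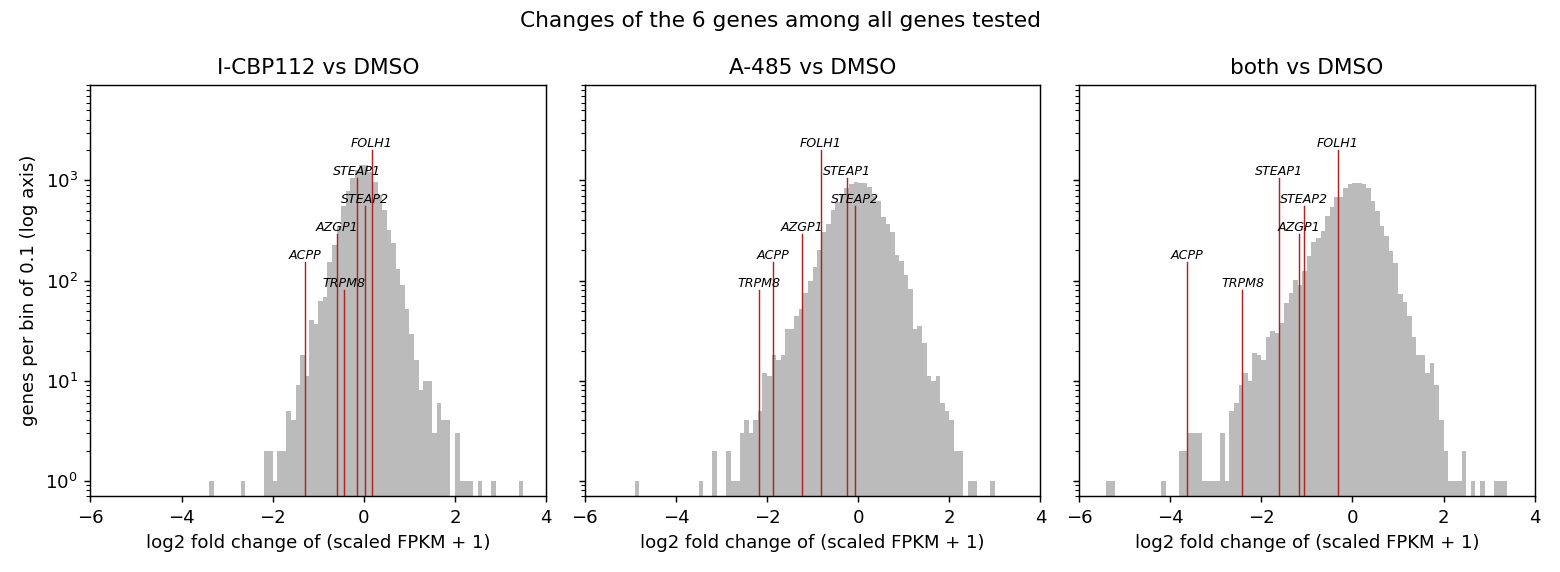
Histograms of the log2 fold changes of the 11870 genes tested (bins of 0.1, log vertical axis) in the 3 comparisons with DMSO, with red lines at the 6 antigen genes. ACPP, at -3.64 with both compounds, and TRPM8, at -2.18 with A-485, lie in the lower tails, and FOLH1 lies nearest 0 with both.

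Transcripts were examined singly for the same genes. STEAP1 had 1, FOLH1 5, STEAP2 9, ACPP 5, AZGP1 3, TRPM8 5 and STEAP4 3 in the table, and 21 of the 31 passed the filter. With both compounds 21 of the 21 lay below 0, with A-485 18 and with I-CBP112 16. Transcripts of 1 gene share their fragments, so these directions are not independent. The share of all transcripts below 0 is not given here. Limma called 0 of the 21 in each of the 7 comparisons. Against DMSO it called 0.333%, 0% and 0.022% of 31832 transcripts for both, A-485 and I-CBP112. An unadjusted p under 0.05 was found for 8, 8 and 2 of the 21, where 11.1%, 10.5% and 7.17% of all transcripts had one, so the count with I-CBP112 was near that of all transcripts. In the other comparisons 0.113% (both against I-CBP112), 0% (both against A-485), 0.00942% (A-485 against I-CBP112) and 0.00314% (interaction) of the transcripts were called. With the replicate block the single STEAP1 transcript passed with both compounds (limma, adjusted p = 0.0264).

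Of FOLH1, the 750-codon FOLH1-201 and the 719-codon FOLH1-203 carried most of the signal. FOLH1-201 took 55.2 and 41.7% of the gene under DMSO, 63.9 and 54.9% under I-CBP112, 50.3 and 41.2% under A-485, and 36.8 and 47.4% under both. FOLH1-203 took 35.8 and 47.3%, 25.03 and 29.1%, 39.8 and 42.0%, and 51.8 and 41.7% in the same order. With I-CBP112 the FOLH1-201 share overlapped that of DMSO, and the FOLH1-203 share lay below it in both libraries. With A-485 the change of the 2 transcripts was alike, at -0.89 ± 0.27 and -0.83 ± 0.21 (limma, adjusted p = 0.362 and 0.323). They share 97.9% of their windows of 50 bases, so their split is an estimate. Sequence that FOLH1 may share with its relative FOLH1B was not compared.

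ACPP has a secreted and a membrane-spanning form. ACPP-201, with 386 codons, stood at 4.43 and 6.25 scaled FPKM with DMSO and at 0.218 and 0.265 with both compounds (-2.34 ± 0.36; limma, adjusted p = 0.0827). ACPP-202, with 418 codons, stood at 4.79 and 4.56 and at 0.200 and 0.461 (-2.10 ± 0.43; limma, adjusted p = 0.163). The incomplete ACPP-208 stood at 8.23 and 9.81 and at 0.163 and 0.0380 (-3.18 ± 0.45; limma, adjusted p = 0.0667). With A-485 the share of ACPP-202 was 54.2 and 46.9%, against 25.2 and 22.1% with DMSO. That of ACPP-208 was 21.3 and 30.2% against 43.3 and 47.5%. Neither overlapped, but shares were not tested. How often the shares of other transcripts separate with 2 libraries a group is not given here. Of the windows of ACPP-208, 89.9% are also in ACPP-201.

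In the remaining genes the shares varied within groups. AZGP1-201, with 298 codons, held 57.3 to 96.1% of AZGP1, and the incomplete AZGP1-203 ran from 0.0121 to 40.2%, apart by up to that much within a group. STEAP2-201 and STEAP2-203 encode 490 codons each, and STEAP2-203 held 4.61 and 30.9% of the gene in the 2 I-CBP112 libraries. TRPM8-201, with 1104 codons, stood at 2.42 and 2.34 scaled FPKM with DMSO and at 0.0246 and 0.0493 with both, where the incomplete TRPM8-207 was listed at 0. TRPM8 as a whole rested on about 2 and 3 fragments there.

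**Figure D4:**
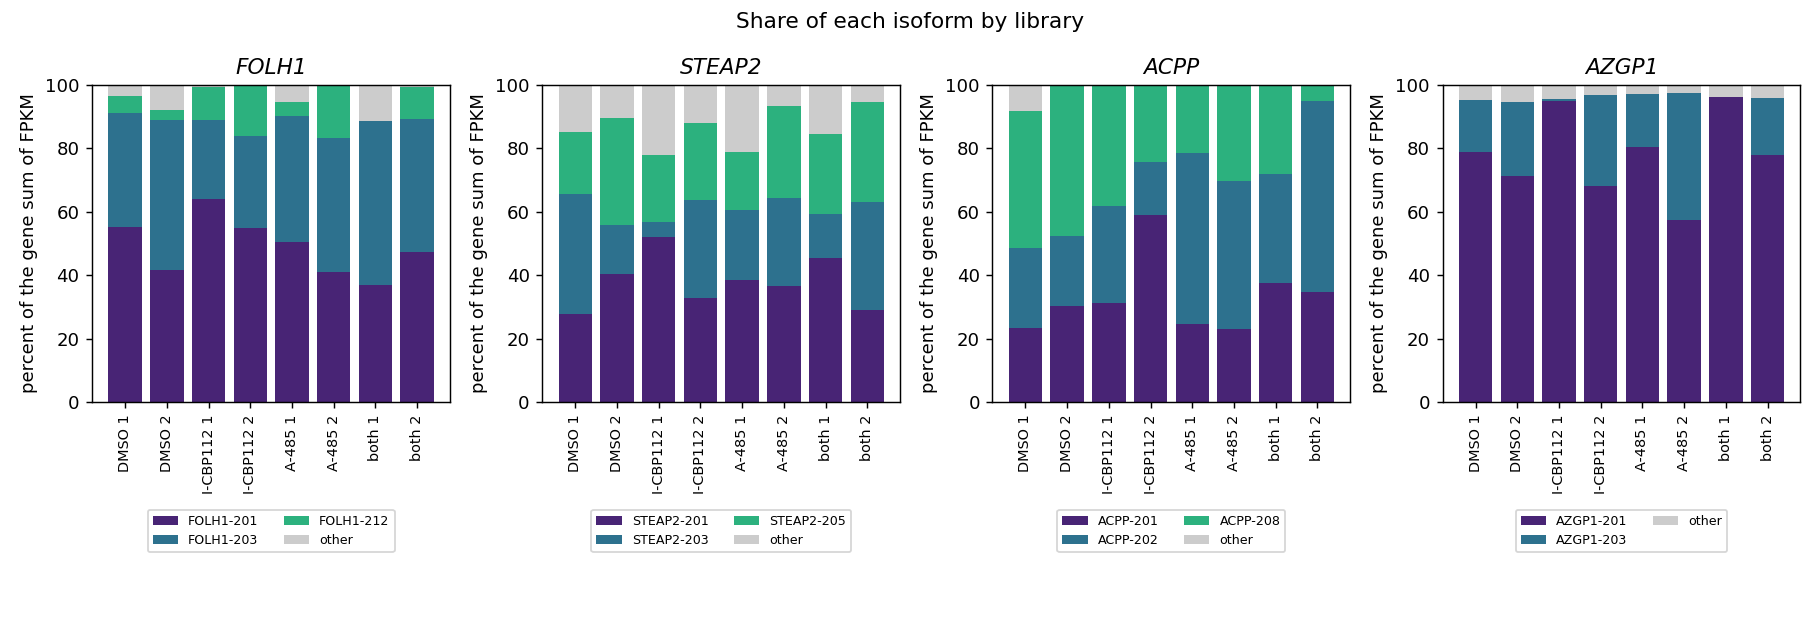
Percent of the gene's summed FPKM (vertical axis) held by each named transcript of FOLH1, STEAP2, ACPP and AZGP1 in each of the 8 libraries, with the other transcripts in grey. ACPP-208 takes 43.3 and 47.5% with DMSO and 21.3 and 30.2% with A-485. The STEAP2 and AZGP1 shares differ as much within a group as between groups. Shares were not tested, and how often those of other transcripts separate is not given here.

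Genes with a similar pattern were named for each of these 6, by Pearson's r of log2(scaled FPKM + 1) over the 8 libraries, a description across points that share their replicate and depth. Since the choice largely fixes how these genes differ between groups, no test is given for them. For FOLH1 they were MAF (r = 0.989), SEMA6A and CMTM8, whose log2 differences with A-485 were -1.02 ± 0.21, -1.39 ± 0.20 and -1.74 ± 0.23. For STEAP1 they were STEAP1B, ZNF367 and UAP1, an enzyme of UDP-N-acetylglucosamine synthesis, at -1.80 ± 0.20 with both. For STEAP2 they were SLCO5A1, ADGRG6 and METAP1D (r from 0.984 to 0.988), and for ACPP TAP2, MAPK6 and GLYATL1 (r from 0.986 to 0.994). AZGP1 was nearest to TCP1, IRF2BP2 and PRPS1, and TRPM8 to GARS, TRIM49D1, of a family with near-identical copies, and PKP4 (r from 0.991 to 0.994).

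Beside ACPP and AZGP1, other secreted products of the prostate were measured. Here and for the lists that follow, limma called 4.65% of all genes with A-485 and 10.5% with both, or 13.4% and 19.2% with the replicate block. Of 10 tested, 9 fell with A-485 (10 with the block) and 9 with both compounds, and 0 passed with I-CBP112 (medians -1.77, -2.37 and -0.66). KLK3, the gene of prostate-specific antigen, was at -5.38 ± 0.19 with both, KLK2 at -5.29 ± 0.28, the peptide hormone gene RLN1 at -3.47 ± 0.32 and the kallikrein KLK4 at -2.71 ± 0.19 (adjusted p by limma between 2.2e-05 and 0.000852). Of 23 other surface proteins used as targets, 4 fell with A-485 and 9 with both (6 and 12 with the block; medians -0.39 and -0.63). With A-485 these were SLC45A3 (-3.15 ± 0.25), TMEFF2 (-1.58 ± 0.26), TMPRSS2 (-1.34 ± 0.21) and B4GALNT1 (-0.97 ± 0.18; limma, adjusted p of the 4 from 0.00265 to 0.0248). The B4GALNT1 call was lost in most fits with 1 library left out. Among the transcription factors listed with these genes, SPDEF fell with A-485 (-1.42 ± 0.25; limma, adjusted p = 0.0217) and with both (-2.47 ± 0.25; limma, adjusted p = 0.00114). GATA2 fell with both (-1.36 ± 0.20; limma, adjusted p = 0.00594).

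The proteins' own pathways were examined next. Of 12 genes of iron and copper handling, the copper importer SLC31A1 (-1.28 ± 0.19) and the haem oxygenase HMOX1 (-1.89 ± 0.19) fell with A-485, and these and STEAP1B with both (limma, adjusted p from 0.000911 to 0.0131 for SLC31A1 and HMOX1). With the block 3 and 4 of the 12 were called, each lower, and the list medians were -0.18 and -0.20. Of 12 relatives of FOLH1 and genes of folate handling, 0 were called by limma with A-485, 3 lower with the replicate block, and 6 with both. Among these 6 was the folate receptor FOLR1, higher at 1.52 ± 0.26, which passed the filter through the group where it is high alone (2.15 and 2.87 scaled FPKM with both, at most 0.981 in the other libraries), so its call is no support. SHMT2 (-1.51 ± 0.35), NAALADL2 (-1.45 ± 0.21), the thymidylate synthase TYMS (-1.31 ± 0.27) and the reduced folate carrier SLC19A1 fell (limma, adjusted p from 0.00529 to 0.0328). NAALADL2, a relative of FOLH1, had 9.17 and 11.4 scaled FPKM with A-485 and 2.10 and 2.65 with both.

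Relatives of ACPP and TRPM8 were examined in the same way. Of 5 other acid phosphatases limma called 0 in each of the 3 comparisons with DMSO, without or with the block. ACP1 was at -0.40 ± 0.22 and ACP2 at 0.026 ± 0.22 with both (limma, adjusted p = 0.284 and 0.954), and the list median was -0.033. Of 12 other TRP channels and genes of store-operated calcium entry, TRPM7 rose (1.16 ± 0.24; limma, adjusted p = 0.0381) and the calcium channel TRPV6 fell (-1.97 ± 0.34; limma, adjusted p = 0.0217) with A-485. The TRPM7 call was lost in most fits with 1 library left out. With both compounds limma called 0 of the 12. With the block 1 higher and 2 lower were called in either comparison. TRPV6 stood at 31.1 and 18.3 scaled FPKM with DMSO, 7.38 and 3.84 with A-485, and 14.6 and 9.75 with both.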

How the data were processed

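Per the labels' protocols, the RNA came from a Trizol preparation with DNase digestion. The authors' deposited table gives FPKM for 81591 Ensembl transcripts in 8 libraries. Its name says counts, yet 78.3% of the values are not whole numbers, so the test planned for FPKM was used. STAR, Cufflinks, DESeq, DESeq2, hg19 and GRCh37 appear in the submitters' processing notes, with neither versions nor roles. Names, lengths and types came from GENCODE release 29, which follows GRCh38, for 74209 transcripts (91.0%). FPKM were summed per gene, set to a total of 1e+06 and scaled by a trimmed mean of log ratios (30% of ratios and 5% of levels trimmed). Fragments were estimated from the FPKM step of low values in genes with 1 transcript of at least 3000 bases. Of these values 72.7 to 82.6% were whole within 0.1.

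Genes with a scaled value of at least 1 in 2 libraries entered limma 3.58.1 (R 4.3.3), fitted to log2(scaled FPKM + 1) with 4 group means, 4 residual degrees of freedom, a trended robust spread and Benjamini-Hochberg adjustment. Fold changes are on that scale, which understates those of low genes. The script was tested on simulated data. Deviations of same-numbered libraries from their group means correlated in each of the 6 pairs of groups (r from 0.144 to 0.425). Depth also went with the replicate number, so this correlation does not show that the libraries were paired. The column labels carry date-like prefixes that follow the replicate number, and what they mark is not stated. The main fit had no block. Values with the replicate block are given where the call of 1 of these genes or a list's count changed.

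The genes and lists were chosen with earlier results of these data known. Named were the 7 genes; of each list the genes called, up to 4 with the largest change, or the 2 most abundant where none was called; transcripts with at least 10% of their gene; and the 3 genes most correlated with each called gene. Further genes were named after their values were seen. Some results for genes of the lists, for neighbouring genes and for motifs are not reported here. Alternatives covered the scaling, the pseudocount (0.1 and 5), the filter, the transcripts summed, the groups fitted, the model (plain moderation, voom on fragments), the block and each library left out.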

Additional observations from a re-analysis of the deposited data

Results flagged for a closer look

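AZGP1 stood out because the sign of its change with I-CBP112 differed without and with A-485 in both replicates. Without A-485 its log2 change with I-CBP112 was -0.83 in replicate 1 and -0.35 in replicate 2. With A-485 it was 0.035 and 0.080, values within the spread of the libraries, whose groups overlapped (0.057 ± 0.19; limma, adjusted p = 0.934, and -0.030 with scaling to the total alone). The change without A-485 was not called either (limma, adjusted p = 0.355). The difference between the 2 settings, the interaction, was 0.65 ± 0.27 and did not pass over all genes (limma, adjusted p = 0.557, and 0.273 with the replicate block), so that the change is not shown to depend on A-485.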

How the results depend on the processing

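Of 792 alternative values of the genes' log2 fold changes, 693 kept their direction and side of the threshold, 70 lost and 6 gained a call, and 23 changed sign. The largest effect was that of leaving FPKM unscaled, where the median of all genes shifted against DMSO by 0.052 (I-CBP112), 0.35 (A-485) and 0.58 (both) and 0 of the 6 genes were called in each comparison. Scaling to the total alone shifted it by 0.13, 0.31 and 0.25. For the 7 comparisons, leaving out 1 library gave 1 to 3 calls with A-485 against DMSO, 3 to 5 with both, 0 to 3 for both against A-485, 2 to 4 for both against I-CBP112, 0 to 1 for A-485 against I-CBP112, and 0 to 0 for I-CBP112 against DMSO, the interaction and the transcripts. Fitting only the groups compared gave 2 calls with A-485 and 1 for both against A-485, where a pseudocount of 5 gave 1 and no filter 0. The replicate block and voom on fragments each gave 2 for A-485 against I-CBP112. The block added FOLH1 there (adjusted p = 0.0213) and STEAP2 for both against A-485 (adjusted p = 0.0389), and changed no other call of these genes. Against DMSO it moved the counts of the gene lists by at most 1.5 times, apart from the folate genes with A-485 and the TRP channels with both. Among transcripts, both compounds gave 1 call with the block and 1 with no filter. Some values that were not called changed sign. Unscaled, these were FOLH1 with both (0.47) and for both against I-CBP112 (0.24), STEAP1 with A-485 (0.26) and for A-485 against I-CBP112 (0.34), STEAP2 likewise (0.43 and 0.34) and AZGP1 for both against I-CBP112 (0.12). Scaled to the total alone, they were STEAP1 for I-CBP112 (0.015), for A-485 (0.11) and between them (0.098), STEAP2 for A-485 (0.29) and for A-485 against I-CBP112 (0.092), and AZGP1 for both against A-485 (-0.030). With 1 library left out, they were STEAP1 for I-CBP112 (-0.32 to 0.030) and for A-485 against I-CBP112 (-0.29 to 0.088), STEAP2 for I-CBP112 (-0.16 to 0.23) and for A-485 (-0.27 to 0.12), and AZGP1 for both against A-485 (-0.036 to 0.15). The interaction turned for ACPP with a pseudocount of 5 (0.20) and for TRPM8 with a pseudocount of 0.1 (-0.68) and with voom (-1.20), since the pseudocount sets the size of changes near 0. The cause of the other shifts was not tested. Depth limits TRPM8, which rested on 2 to 3 fragments a library with both compounds, and STEAP4. Of 924 alternative counts for the gene lists, 785 stayed within 1.5 times.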

Other observations

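The nearest tested genes on either side of each antigen gene, in the order of the annotation, were looked at after the values of the antigen genes had been seen. STEAP1 and STEAP2 are next to each other. Around them, SRI (-0.046 ± 0.22), ADAM22 (0.85 ± 0.31), CFAP69 (-0.62 ± 0.37) and GTPBP10 (0.031 ± 0.21) did not pass with both compounds (limma, adjusted p from 0.119 to 0.945). None of the 4 neighbours of ACPP (MRPL3, NUDT16, DNAJC13 and ACAD11, from -0.45 to 0.49) and of AZGP1 (GJC3, TRIM4, ZKSCAN1 and ZSCAN21, from -0.44 to 0.43) passed either. Beside TRPM8, HJURP, a chaperone of centromeric histones, fell by 0.81 ± 0.19 and SH3BP4 by 0.71 ± 0.17 on the log2 scale (limma, adjusted p = 0.0311 and 0.0385), while USP40 (0.51 ± 0.28) did not pass. Beside FOLH1, the nucleoporin gene NUP160 fell (-0.70 ± 0.16; limma, adjusted p = 0.0308), and PTPRJ, TNKS1BP1 and SSRP1 did not pass.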
